A study of Mus musculus with 5 samples.

Results

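The 9 complement genes described here were read across myeloid cells sorted from remyelinating lesions of the mouse corpus callosum. They comprised the 3 chains of C1q (C1qa, C1qb and C1qc), the components C3 and C4b, the properdin gene Cfp, and the anaphylatoxin receptors C3ar1, C5ar1 and C5ar2. Genes were chosen by their symbol in the FPKM table and matched by gene ID to the table of counts, and all 9 were found among 49671 genes of the FPKM table and 24984 genes of the count table. All animals were male C57BL/6J mice of wild-type (WT) genotype, aged 10 weeks, whose corpus callosum had received 2 µl of 1% LPC (lysolecithin, a detergent-like lipid that destroys myelin where it is injected), and cells were taken at 10 days post-lesion (dpl). CD11b+ Ly6G- CD3- cells with low CD45 gave 3 microglia libraries, and those with high CD45 gave 2 libraries of cells that the labels call monocyte-derived macrophages and the paper calls monocytes, the name used here. No unlesioned sample was part of this comparison. By the methods, the monocyte gate yielded far fewer cells per mouse than the microglia gate, and all libraries were made from amplified cDNA.

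Complement is a cascade of plasma and tissue proteins that tags debris, microbes and synapses for removal. In the classical pathway C1q binds its target and activates proteases that cleave C4 and then C3. The fragment C3b stays on the target and is recognised by phagocytes, while the small fragments C3a and C5a diffuse and attract or activate myeloid cells through C3ar1, C5ar1 and C5ar2. In the brain, microglia are the main source of C1q.

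The counts assigned to genes came to 5890081 to 9021700 in the microglia libraries and 3417150 and 6514611 in the monocyte libraries, and mitochondrially encoded genes took 11.1% to 39.0% and 28.5% to 39.9% of them. Libraries are numbered within each group in the order of their labels. Values are given as FPKM, which divides the read pairs of a gene by its length and by the library total, or as CPM, which divides by the total alone. Monocyte library 1 stood apart, with a TMM factor (a scaling factor from the bulk of the genes) of 0.0929 against 0.611 in monocyte library 2 and 1.71 to 3.76 in microglia. Fold changes of the members and ratios of pooled CPM are therefore also given with libraries left out. Pooled CPM divides the counts of a gene summed over the libraries of a group by their summed totals, so deeper libraries weigh more. Group means, mean chain shares and the genes nearest to the C1q profile are given with it included. Of 6 textbook markers of homeostatic microglia all were read, with a summed level of 5748 to 10461 CPM in microglia and 1616 to 2193 CPM in monocytes. Of 6 markers of classical monocytes, no library held a read of Ly6c2 or Chil3. Ccr2, the receptor by which these cells enter tissue, and Plac8 were at 0 in both monocyte libraries. In microglia Ccr2 had 12, 52 and 0 reads and Plac8 2, 14 and 0. The list summed to 11.7 to 285 CPM in microglia, 5632 CPM in monocyte library 1 and 183 CPM in monocyte library 2. In monocyte library 1 all of it came from Vcan (2343 CPM) and Fn1 (3290 CPM). In monocyte library 2 Vcan had no read and all came from Fn1, which was at 281, 69.5 and 11.7 CPM in microglia. The populations were compared on the counts with edgeR (quasi-likelihood, TMM scaling), p-values were adjusted after Benjamini and Hochberg over 10105 genes left by its expression filter, and log2 fold changes are positive where monocytes were higher. Permutation tests were exact and two-sided, and with 3 and 2 libraries there are 10 splits, so 0.1 is the smallest p possible. The paper counts libraries as mice, but the labels do not say that each came from its own animal, so p-values measure the spread between these libraries, which may be technical. Where no read was found, the level may still reach 0.878 CPM in monocyte library 1 or 0.333 to 0.509 CPM elsewhere (3 counts, counting error only).

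The 3 C1q chains held most reads of the 9 genes in both populations. They made up 74.2% to 86.8% of the counts of the 9 genes in microglia, 98.0% in monocyte library 1 and 89.3% in monocyte library 2. Together the 9 genes took 0.289% to 0.769% of all counts in microglia and 0.0427% and 0.442% in monocytes. The level summed over the 9 genes averaged 4812 ± 2540 CPM in microglia (SD, n = 3) and 2421 ± 2821 CPM in monocytes (SD, n = 2; exact permutation p = 0.6), with monocyte library 2 inside the microglial range and monocyte library 1 far below it. Because these are sorted bulk samples, fewer cells of a type within a gate and less RNA per cell cannot be told apart.

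**Figure D1:**
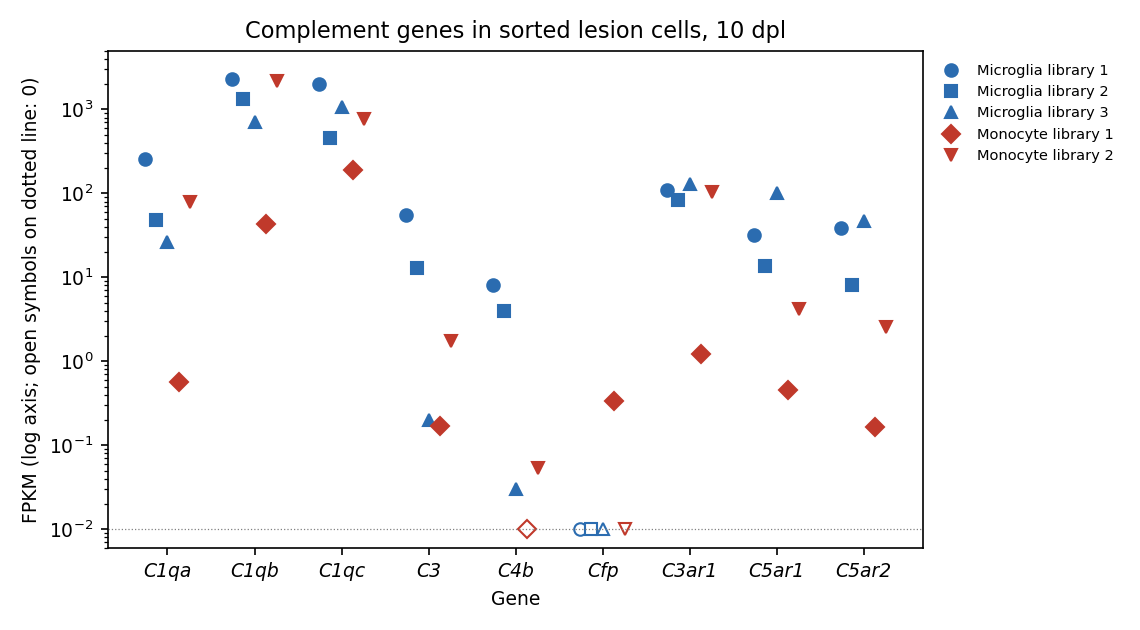
FPKM (log axis) of the 9 complement genes in each of the 3 microglia libraries (blue) and 2 monocyte libraries (red), with open symbols for values of 0. C1qb and C1qc are the highest of the 9 genes in every library, C3ar1 lies between 82.6 and 130 FPKM in all but monocyte library 1 (1.22 FPKM), and Cfp is at 0 in all but monocyte library 1.

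C1qb, which encodes the B chain (chromosome 4 of GRCm38, 136880129 to 136886187, minus strand), was at 2288, 1331 and 714 FPKM in microglia and at 43.0 and 2166 FPKM in monocytes. It ranked 11, 16 and 41 among all genes in the microglia libraries, 12 in monocyte library 2 and 319 in monocyte library 1. Monocyte library 2 thus read as high as the highest microglia libraries, and the groups overlapped. The group means were 1445 ± 793 FPKM (SD, n = 3) and 1104 ± 1501 FPKM (SD, n = 2), and the log2 fold change with TMM was 1.99 (standard error 2.15, adjusted p = 0.651 from edgeR). C1qc, which encodes the C chain (chromosome 4, 136889804 to 136893065, minus strand), was at 2029, 459 and 1063 FPKM in microglia and 192 and 779 FPKM in monocytes. It ranked 146 in monocyte library 1, the highest of the 9 genes there. The log2 fold change of C1qc was 1.93 (standard error 2.20, adjusted p = 0.670 from edgeR). C1qa, which encodes the A chain (chromosome 4, 136895917 to 136898803, minus strand), was far lower, at 259, 48.6 and 26.3 FPKM in microglia and 0.563 and 78.1 FPKM in monocytes. The value in monocyte library 1 rests on 2 reads, against 529 in monocyte library 2. The log2 fold change of C1qa was 0.98 (standard error 1.80, adjusted p = 0.797 from edgeR).

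The proportions of the chains were not alike in the 5 libraries. Per length, C1qb exceeded C1qa 8.84-fold, 27.4-fold and 27.2-fold in microglia and 76.5-fold and 27.7-fold in monocytes. The A chain gave 5.66%, 2.64% and 1.46% of the FPKM summed over the chains in microglia, and 0.239% and 2.58% in monocytes. It was the lowest chain in all 5 libraries, although C1q protein holds equal numbers of the A, B and C chains. The order of C1qb and C1qc changed between libraries of the same group. C1qb was the higher in microglia libraries 1 and 2 and monocyte library 2, and C1qc in microglia library 3 and monocyte library 1. Of the C1q counts, C1qc took 58.7% (95% exact binomial interval 58.2% to 59.1%, which covers counting error), 37.2% (36.5% to 37.8%) and 71.9% (71.2% to 72.5%) in microglia. It took 88.7% (86.9% to 90.3%) in monocyte library 1 and 38.2% (37.6% to 38.8%) in monocyte library 2. The reads are amplified, so these intervals do not cover the spread between libraries, which the group values give. Between the groups, the C1qc share averaged 55.9 ± 17.5% and 63.4 ± 35.7% (exact permutation p = 0.7). For C1qb it averaged 41.7 ± 17.2% and 35.5 ± 34.4% (exact permutation p = 0.9), and for C1qa 2.37 ± 1.55% and 1.10 ± 1.36% (exact permutation p = 0.4). Such shares do not depend on the scaling between libraries.

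**Figure D2:**
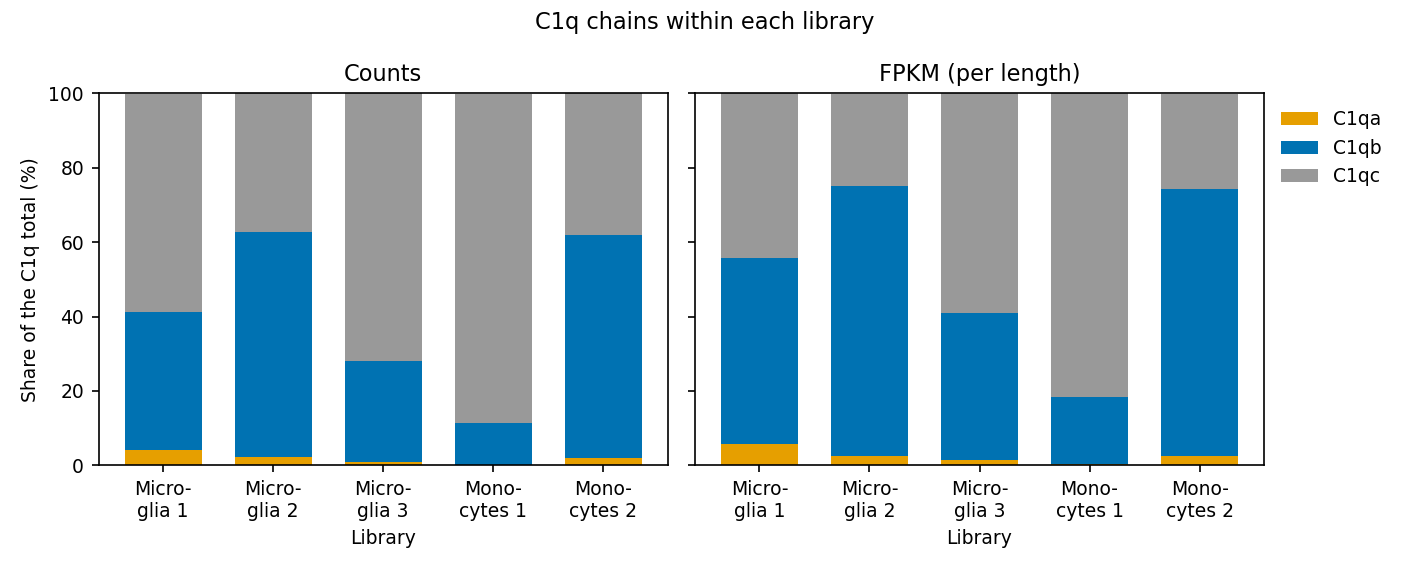
Share (%) of each chain in the C1q total of each library, from counts on the left and from FPKM, which takes length into account, on the right. By counts C1qc takes 37.2% to 71.9% in the microglia libraries and 88.7% and 38.2% in the monocyte libraries, and C1qa stays at 4.03% or lower throughout.

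The length used for a gene sets its FPKM. The 1931 bases behind the FPKM of C1qc cover the coding transcript C1qc-201 of 1203 bases and the exons of a second, noncoding transcript, whereas those of C1qa (1040 bases) and C1qb (1088 bases) cover a single coding transcript each. On the length of the coding transcript alone, C1qc came to 3257, 737 and 1706 FPKM in microglia and 308 and 1250 FPKM in monocytes. With that length C1qc also exceeded C1qb in microglia library 1, while C1qa remained the lowest chain in every library. GENCODE vM21 places no other gene over any of the C1q genes.

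The 3 C1q genes lie next to each other on chromosome 4 and are transcribed from separate starts. Of the 9 genes 7 had a promoter in the RefSeq table of GRCm38.p6, without C1qa and C4b. The 250 bases before each start were searched on both strands for AGGAAGT, a core of sites for the myeloid factor PU.1, for TGCTGAC, part of the site of large Maf factors, and for the E-box CACGTG. The PU.1 core was found in the promoters of C1qb, C1qc, C5ar1 and C5ar2, which is 4 of 7 genes, and in 8.8% of 27025 genes of the table. The other motifs were found in none of the 7 genes, and in 4.31% and 6.86% of all genes. The stretches before C1qb, C1qc and C5ar2 are shown with the PU.1 core in capitals, since there it lies before both the RefSeq and the GENCODE start. The 2 matches of C5ar1, at −190 and −72 from its RefSeq start, lie past its GENCODE start, so no stretch is shown for it. C5ar2 has 2 RefSeq starts, and the core is before 1 of them. The stretches shown run 5′ to 3′ on the minus strand, on which all 3 genes lie. The stretch before C1qc stops where GENCODE starts the gene. The window before C1qb is chr4:136886201-136886450, that before C1qc is chr4:136893066-136893164 and that before C5ar2 is chr7:16244155-16244404.
C1qb: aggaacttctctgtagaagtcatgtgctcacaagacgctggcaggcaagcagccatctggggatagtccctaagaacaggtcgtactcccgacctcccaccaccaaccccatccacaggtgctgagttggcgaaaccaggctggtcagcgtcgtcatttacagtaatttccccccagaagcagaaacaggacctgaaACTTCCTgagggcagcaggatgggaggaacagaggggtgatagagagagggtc
C1qc: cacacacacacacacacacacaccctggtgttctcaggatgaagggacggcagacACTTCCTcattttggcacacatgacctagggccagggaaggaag
C5ar2: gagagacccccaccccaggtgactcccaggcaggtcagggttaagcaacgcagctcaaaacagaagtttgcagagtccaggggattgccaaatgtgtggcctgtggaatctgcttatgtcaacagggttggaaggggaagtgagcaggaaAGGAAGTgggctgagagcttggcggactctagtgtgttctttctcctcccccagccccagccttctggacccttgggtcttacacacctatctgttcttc
Relative to the RefSeq start, the core begins at −53 in C1qb, at −195 in C1qc and at −100 in C5ar2. A match to these letters does not show that a factor binds there.

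C3, the component on which all pathways converge (chromosome 17, 57203970 to 57228136), was uneven among the microglia libraries. It was at 54.9 and 12.97 FPKM in microglia libraries 1 and 2 and at 0.198 FPKM in microglia library 3, against 0.171 and 1.76 FPKM in monocytes. The reads behind these values were 1872, 602 and 6 in microglia and 3 and 59 in monocytes. Microglia library 3 therefore lay below monocyte library 2, and the groups overlapped. Microglia library 3 also held reads of fewer genes, 10416 against 16013 and 15246 in microglia libraries 1 and 2 and 9972 and 9942 in monocytes, and the part of this in the C3, C4b and Itgax values was not tested. The log2 fold change of C3 was −1.43 (standard error 1.91, adjusted p = 0.715 from edgeR). C4b, the mouse C4 gene (chromosome 17, 34728380 to 34743882), had the same split. Its reads numbered 307, 202 and 1 in microglia, against 0 and 2 in monocytes. That was 8.13, 3.93 and 0.0298 FPKM in microglia and 0 and 0.0539 FPKM in monocytes. The pooled CPM of C4b was 118 times as high in microglia as in monocytes (95% exact binomial interval 32.4 to 973, which covers counting error). Leaving out microglia library 1 gave 67.6, leaving out microglia library 3 gave 161 and leaving out monocyte library 1 gave 77.1, and without monocyte library 2 no read was left in monocytes. With edgeR the log2 fold change of C4b was −4.07 (standard error 2.81, adjusted p = 0.528), and with 0 and 2 reads in monocytes its size depends on the prior count. C4b and its neighbour C4a are near-identical copies, so reads may be split between them. C4a was counted at 1 read in all, in monocyte library 1.

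Other cell types of white matter also make C3 and C4, and their markers moved with these genes among the microglia libraries. Of 6 oligodendrocyte markers 5 were read (Mog was at 0), with a summed level of 164, 74.4 and 9.85 CPM in microglia and 1.76 and 1.07 CPM in monocytes. Of 6 astrocyte markers 4 were read, with a summed level of 97.4, 63.2 and 26.1 CPM in microglia and 1.46 and 51.3 CPM in monocytes, nearly all from the transporter genes Slc1a3 and Slc1a2, while Aldh1l1 and Gja1 were at 0 and Gfap had 1 read in all. Both lists were highest in microglia library 1 and lowest in microglia library 3 within that group, as C3 and C4b were. The part of these cells in the C3 and C4b reads was not tested.

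Cfp encodes properdin, which stabilises the convertase of the alternative pathway (chromosome X, 20925454 to 20931555). It had 2 reads in monocyte library 1 (0.585 CPM) and none in the other 4 libraries, and it did not pass the expression filter. As a count this is under the limit of 3 for a library without a read. By CPM it is above the limits of the other libraries, 0.333 to 0.509 CPM. Fitted without the filter, the log2 fold change of Cfp was 7.13, which rests on these 2 reads, and no member was called. No difference in Cfp was detectable at this depth.

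The receptors behaved differently from each other. C3ar1, the receptor for C3a (chromosome 6, 122847138 to 122856161), was at 108, 82.6 and 130 FPKM in microglia and at 1.22 and 103 FPKM in monocytes. Its spread within microglia was the smallest of the 9 genes relative to its mean among genes with a read there (107 ± 23.9 FPKM, SD, n = 3), and monocyte library 2 lay inside that range. The log2 fold change of C3ar1 was 1.01 (standard error 1.96, adjusted p = 0.808 from edgeR). C5ar1, the receptor through which C5a attracts leukocytes (chromosome 7, 16246743 to 16259540), was at 31.8, 13.8 and 101 FPKM in microglia and at 0.455 and 4.18 FPKM in monocytes. The groups did not overlap. C5ar2, a second receptor for C5a that does not signal through G proteins (chromosome 7, 16234585 to 16244154), was at 38.9, 8.16 and 47.2 FPKM in microglia and at 0.164 and 2.59 FPKM in monocytes, again without overlap. Of the 8 genes that passed the expression filter, these 2 alone had both monocyte libraries under the whole microglial range by CPM (exact permutation p = 0.2 for each), and none had both above it. Among all genes in the test, 48% lay under the range and 0.673% above it, so 2 of 8 is no more than the background.

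The adjacent genes C5ar1 and C5ar2 were close in level, with ratios of C5ar1 to C5ar2 per length of 0.816, 1.69 and 2.15 in microglia and 2.77 and 1.62 in monocytes. Among the counts of the 3 receptors, C3ar1 made up 67.9%, 84.7% and 56.7% in microglia and 75.0% and 95.7% in monocytes. In monocyte library 1 that share rests on 24 receptor reads (95% exact binomial interval 53.3% to 90.2%, counting error only), and the interval holds all 3 microglial values. In monocyte library 2 it rests on 3027 reads (94.9% to 96.4%), above every microglia library. The pooled CPM of C5ar1 was 14.9 times as high in microglia as in monocytes (95% exact binomial interval 11.8 to 19.1, which covers counting error). It was 10.3 without monocyte library 1 and 94.9 without monocyte library 2. For C5ar2 the corresponding values were 16.1 (12.5 to 21.1), 10.9 and 172. Without microglia library 3 the ratio was 7.38 for C5ar1, and without microglia library 2 it was 24.4 for C5ar2. The log2 fold change with TMM was −2.02 for C5ar1 (standard error 1.98, adjusted p = 0.616 from edgeR), while C5ar2 had −2.13 (standard error 1.98, adjusted p = 0.599 from edgeR). Neutrophils carry C5a receptors, and of 6 neutrophil markers Ly6g was at 0, S100a8, S100a9, Mpo and Ngp had 1 read each in all, and nearly all reads came from Csf3r, at a summed level of 206 to 816 CPM in microglia and 5.56 and 218 CPM in monocytes.

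With edgeR none of the 9 genes reached an adjusted p under 0.05 between monocytes and microglia, while 0.0594% of all genes did so as higher in monocytes and 0% as lower. Of the 8 genes tested, 4 had a log2 fold change above 0 (the 3 C1q chains and C3ar1) and 4 below 0 (C3, C4b, C5ar1 and C5ar2), with a median of −0.22 beside −1.11 over all genes tested. At an unadjusted p under 0.05 edgeR called none of the 8 genes, against 8.52% higher and 3.35% lower over all genes. limma-voom called none of them, against 0.317% of all genes higher and 0% lower, and DESeq2 called none after adjustment, against 9.77% higher and 0.99% lower. DESeq2 gave no adjusted p for C4b (log2 fold change −2.88, standard error 2.17), so C4b could not be called there. Before adjustment DESeq2 put 1 of the 8, C1qb, past 0.05 as higher in monocytes (adjusted p = 0.128), as it did 15.2% of all genes, and it put 5.46% past 0.05 as lower. The standard errors of 1.80 to 2.81 on the log2 scale leave room for large differences, so the absence of calls does not show equal levels.

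**Figure D3:**
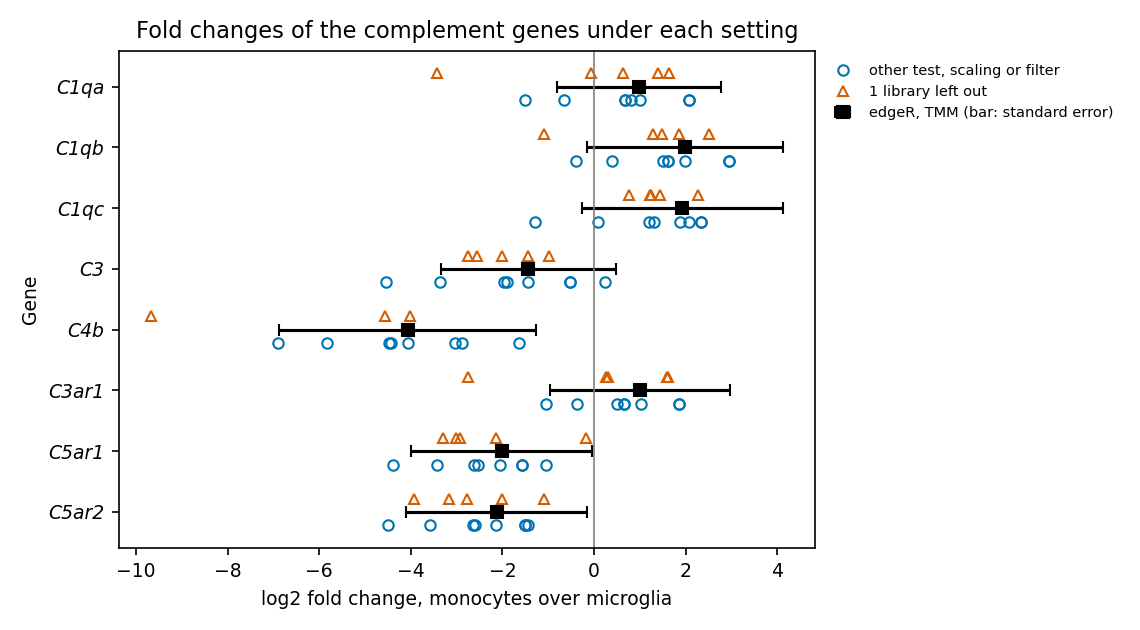
log2 fold change of monocytes over microglia for the 8 complement genes tested. Squares with bars give edgeR with TMM ± its standard error, circles other tests, scalings and filters, and triangles the fit with 1 library left out. C4b, C5ar1 and C5ar2 stay below 0 throughout, while C1qa ranges from −3.43 to 2.08.

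The sign of the C1q chains and of C3ar1 depended on the scaling. With library totals the log2 fold change was −1.51 for C1qa, −0.40 for C1qb, −1.29 for C1qc and −1.05 for C3ar1. The median of all genes moved as well, from −1.11 with TMM to −4.73 with library totals, −0.63 with RLE factors and −3.07 when TMM used just the genes counted 10 times or more in each library. Relative to that median, C1qb lay 3.09 to 4.33 higher, C1qc 2.97 to 3.44 higher, C1qa 2.09 to 3.22 higher and C3ar1 2.12 to 3.69 higher under 5 scalings. C4b lay below the median under each of them, by −2.96 to −2.17. C5ar1 ranged from −0.94 to 0.34, C5ar2 from −1.02 to 0.23 and C3 from −0.32 to 0.18, so that their side of the median changed with the scaling. With TMM factors, C1qc stood at 3989 and 2462 CPM in monocytes, above its microglial range of 325 to 1198 CPM, as did 4.91% of all genes. No member then had both monocyte libraries below the microglial range, against 21.5% of all genes. The genes were not compared with others of equal abundance. Leaving out monocyte library 1 gave log2 fold changes of 1.64 for C1qa, 2.52 for C1qb, 1.23 for C1qc and 1.60 for C3ar1. Leaving out monocyte library 2 gave −3.43, −1.09, 1.25 and −2.76, so that all of these but C1qc changed sign without that library, and C1qa also without microglia library 2 (−0.07).

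Of 47 other genes of the complement system, 26 had a read in at least 1 library and 31 had 10 reads or fewer in all. The 6 other classical pathway genes, which include the proteases C1r and C1s and the component C2, gave 10 reads or fewer for 5 genes, and none reached 10 FPKM in either group. Neither gene of the alternative pathway (Cfb and Cfd) had a read, and of the 7 genes of the terminal pathway, whose products form the pore, 6 had 10 reads or fewer. A mean of 10 FPKM or more in either group was reached by 1 membrane regulator and 6 receptors among the genes named here. Of the 10 genes that passed the expression filter, edgeR called none at an adjusted p under 0.05 in either direction (1 lower in monocytes at an unadjusted p under 0.05, C1qbp, against 3.35% of all genes), limma-voom called none and DESeq2 called C1qbp lower after adjustment, against 0.99% of all genes. Their median log2 fold change was 0.76, beside −1.11 over all genes tested, and 6 of the 10 were above 0 with TMM, although all 10 were below 0 with library totals. By CPM 5 of the 10 had both monocyte libraries under the microglial range and none had both above it, against 48% and 0.673% of all genes, and with TMM factors 4 and 2 did, against 21.5% and 4.91%. With library totals 5 of 10 is thus close to the background, while with TMM factors 4 and 2 of 10 lay above it, which was not tested.

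Cr1l encodes Crry, the membrane regulator of rodents that stops C3 deposition on the cell itself. The microglia libraries held 566, 1003 and 941 of its reads and the monocyte libraries 2 and 16, with no overlap. The pooled CPM of Cr1l was 64.3 times as high in microglia (95% exact binomial interval 40.6 to 109, which covers counting error). That ratio was 47.4 without monocyte library 1 and 199 without monocyte library 2. The exact permutation p for the CPM of Cr1l by library was 0.1, the smallest these splits can give. With edgeR its log2 fold change was −3.38, with a standard error of 2.16 (adjusted p = 0.516).

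Itgam, which encodes CD11b, the sort marker of both gates, pairs with the product of Itgb2 as the phagocytic receptor for C3 fragments. Itgam was at 980, 1391 and 877 FPKM in microglia and at 40.7 and 1916 FPKM in monocytes. Itgb2 was at 386, 153 and 245 FPKM in microglia and at 2.59 and 143 FPKM in monocytes, just below the lowest microglia library, and with TMM factors the groups overlapped. Itgax, the partner of Itgb2 in a second receptor for C3 fragments, was at 120, 29.2 and 0.672 FPKM in microglia and at 1.83 and 86.1 FPKM in monocytes. Like C3 and C4b, Itgax was lowest in microglia library 3 within microglia.

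The remaining genes encode proteins that bind C1q or take part in its uptake. Calr, which encodes calreticulin, was at 234, 125 and 55.2 FPKM in microglia and at 2.24 and 8.58 FPKM in monocytes, without overlap. With edgeR its log2 fold change was −1.28 (standard error 1.99, adjusted p = 0.755). Lrp1, an endocytic receptor that cooperates with calreticulin, was at 194, 38.3 and 60.2 FPKM in microglia and at 13.99 and 57.4 FPKM in monocytes. The groups overlapped on that scale, but with TMM factors Lrp1 was higher in both monocyte libraries than in any microglia library. Its log2 fold change was 1.88 (standard error 2.15, adjusted p = 0.672 from edgeR). C1qbp, whose product binds C1q and resides mostly in mitochondria, was counted 475, 89 and 606 times in microglia and 0 and 1 times in monocytes. With 1 read in monocytes, the ratio of its CPM was 539 (95% exact binomial interval 96.6 to 21320, which covers counting error), and it was 857 without microglia library 2, 358 without microglia library 3 and 354 without monocyte library 1. With edgeR the log2 fold change of C1qbp was −6.93 (standard error 2.87, adjusted p = 0.264), and DESeq2 gave an adjusted p of 0.0266.

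**Figure D4:**
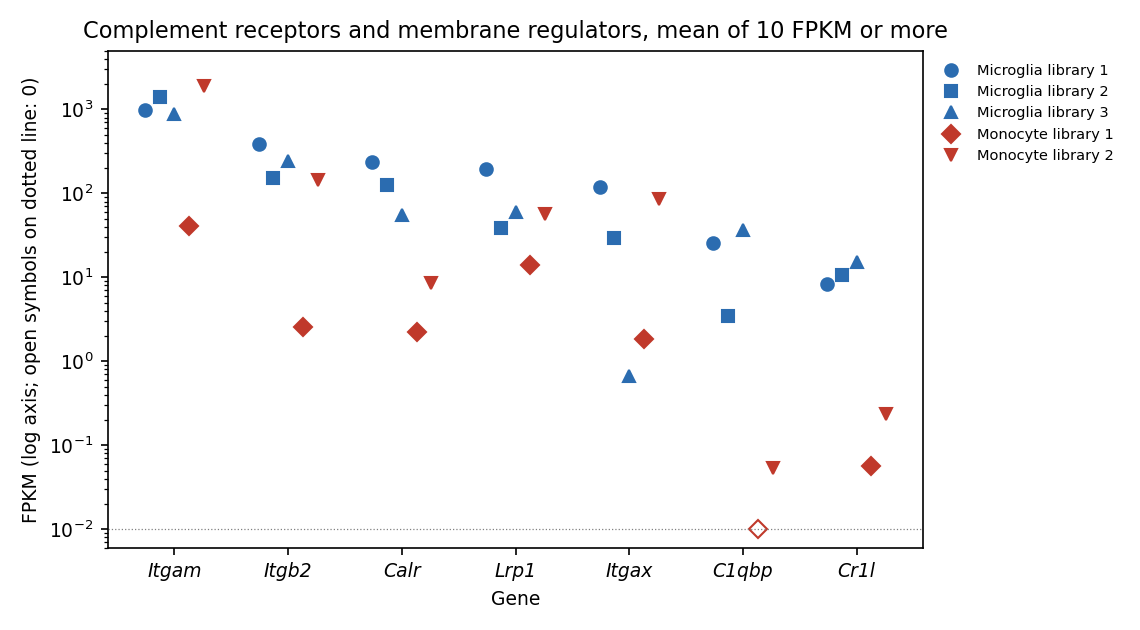
FPKM (log axis) of the 6 receptors and the membrane regulator with a mean of at least 10 FPKM in either group, by library, in the order of their microglial mean, with open symbols for values of 0. On this scale the monocyte points lie below all microglia points for Itgb2 (not so with TMM factors), Calr, C1qbp and Cr1l, while Itgam, Lrp1 and Itgax overlap. With TMM factors, not drawn here, Lrp1 was higher in both monocyte libraries than in any microglia library.

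Genes whose level followed the mean C1q profile most closely were sought among 8518 protein-coding genes that passed the expression filter, by the root mean square distance between log2(CPM + 1) profiles, each centred on its own mean over the 5 libraries. The nearest was Clta, which encodes a clathrin light chain, at a distance of 0.264 and with 246, 80.0 and 62.8 CPM in microglia and 2.63 and 124 CPM in monocytes. Pdcd11, Rpl36, Clcn4 and Ctdsp1 followed at distances of 0.281 to 0.312. The chains themselves lay 0.652 (C1qa), 0.493 (C1qb) and 0.953 (C1qc) from their own mean, farther than these genes. Of the other members C3ar1 came nearest, at 1.03 and rank 626, and C3 was the farthest, at 2.00. With a pseudocount of 0.1, 2 of the 5 nearest genes were shared (Clta and Ctdsp1). With 5 libraries that differ in depth and in how many genes they hold, this likeness is a description.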

How the data were processed

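Microglia (3 libraries) and monocytes (2 libraries) from LPC lesions of wild-type mice were analysed. For the counts, the authors aligned cleaned paired reads to GRCm38 with STAR, named as version 2.5.2a in the submitters' processing notes, and tallied read pairs for each gene of GENCODE vM12. The deposited FPKM equal the counts divided by gene length and library total, with no TMM scaling, as checked for the genes described. Columns of 4 other samples in each of 2 tables, the authors' log2 CPM and the tables of their own fold changes and p-values were not used.

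edgeR 4.0.16 (R 4.3.3) tested monocytes against microglia. Standard errors are the log2 fold change divided by the square root of the F statistic. limma 3.58.1 (voom), DESeq2 1.42.0, other scalings and filters, and leaving out each library gave 13 alternatives. Each tool was first run on simulated counts with known changes. Summaries and plots came from Python 3.11.15, using scipy 1.17.1, pandas 2.3.3, numpy 2.4.6 and matplotlib 3.10.9. Genes without a read were given an upper limit of 3 counts, and amplified reads are not independent molecules, so intervals cover counting error only. Gene positions are from GENCODE vM21, also on GRCm38.

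The 9 members and the lists of 47 other complement genes and of markers were chosen with earlier results of these data known. Genes were named by a rule: all members, other complement genes with a mean of at least 10 FPKM in either group or called by the test, the 5 genes nearest to the C1q profile, and the marker lists. A gene that this rule names is not reported here. Ratios between members, receptor shares and the coding length of C1qc were added after the values were seen. Lists of border macrophages (0 to 8.59 summed CPM by library), endothelial and mural cells (1.36 to 492), B cells (7.90 to 529), T cells (0 to 0.768), dendritic cells (3.22 to 143) and classical monocytes (11.7 to 5632) were summed as well.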

Additional observations from a re-analysis of the deposited data

How the results depend on the processing

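None of the complement members with an adjusted p passed 0.05 under any of the 13 alternatives, and DESeq2 gave none for C4b. Of 102 log2 fold changes of members recomputed 91 kept their sign and 11 turned. With library totals C1qa turned to −1.51, C1qb to −0.40, C1qc to −1.29 and C3ar1 to −1.05. When TMM used just genes counted 10 times or more in each library C1qa turned to −0.66 and C3ar1 to −0.36, and with limma-voom C3 turned to 0.24. Leaving out 1 library gave −3.43 to 1.64 for C1qa, −1.09 to 2.52 for C1qb, 0.76 to 2.26 for C1qc and −2.76 to 1.61 for C3ar1. It gave −2.75 to −0.97 for C3, −9.68 to −4.02 for C4b (not tested without microglia library 1 or 2, since it then missed the filter), −3.30 to −0.17 for C5ar1 and −3.93 to −1.09 for C5ar2. By CPM with TMM factors 0 members were lower and 1 was higher in both monocyte libraries. Among other complement genes DESeq2 called 1 lower. Over all genes, 6 were higher in monocytes with edgeR, 32 with limma-voom, 987 with DESeq2 (100 lower), 0 with library totals, 3 with that restricted TMM, 2 without mitochondrial genes, 70 without a filter, 14 with CPM above 1 in at least 2 libraries and 0 to 343 without 1 library. With 1 monocyte library left (343 without library 1, 326 without library 2), that library is taken to vary like the microglia libraries. What caused these changes was not tested. No paired analysis was possible because the groups share no replicate number. The precision of the C1qa, C3, C4b, C5ar1 and C5ar2 values is limited in monocyte library 1 by 0 to 4 reads each.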
